A study of Mus musculus with 16 samples.

Results

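Transcripts of 9 genes that govern how hematopoietic progenitors enter, adhere in and leave the bone marrow were followed in sorted mouse progenitors. The genes were taken by name: the chemokine receptors Cxcr4 and Ccr7, the selectin ligand Selplg, the sphingosine 1-phosphate receptor S1pr1, the integrin chains Itga4, Itgb7 and Itgal, the hyaluronan receptor Cd44, and Ptk2b, a kinase downstream of chemokine receptors and integrins. They are 9 of 47937 genes in the count tables and 9 of the 11831 genes with a mean above 100 counts in at least 1 group, so no gene of the set was lost to the filter. Of the 9, 8 reached that mean in both populations, and Ccr7 reached it in MPP4 only. RNA came from MPP3 and MPP4, multipotent progenitors with a myeloid and a lymphoid bias, sorted from bone marrow of 8 C57BL/6 mice. Each mouse gave 1 library of each population, which made 4 groups of 4 libraries. Both populations were Lin- Sca1+ cKit+ (LSK) CD150- CD48+ cells after depletion with antibodies to CD3, B220, CD11b, Gr1 and Ter119, and MPP4 cells were in addition sorted for Flt3.

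Per the labels, the WT mice were Ebf1fl/fl Tie2Cre+/+ and the KO mice Ebf1fl/fl Tie2Cre +/cre. Both groups then carried floxed alleles of Ebf1, a transcription factor of the B lineage, and the groups differed in the Cre transgene. The series description gives the transgene to both groups instead and unfloxed Ebf1 to the WT mice, and which holds was not tested here. Tie2Cre is also active in endothelium, so deletion in these mice is not limited to blood cells. By replicate number, ages were 12, 11, 12 and 11 weeks for WT and 10, 9, 11 and 11 weeks for KO. Each genotype had 2 females and 2 males. Ebf1 itself went against the label in MPP4, with 98 to 263 counts in the libraries labelled WT and 488 to 928 in those labelled KO, while in MPP3 it had 5 to 91 and 6 to 84 counts. Gene counts do not tell intact from recombined Ebf1 transcripts, so what is called KO below is what the labels call KO.

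Progenitors stay in the marrow because CXCR4 responds to CXCL12 from stromal cells and because integrins bind VCAM1 and ICAM1 on the niche cells. To enter from blood they roll on endothelial selectins through sialylated glycoproteins such as PSGL-1 and CD44, and chemokine signals then switch integrins to their adhesive form. S1PR1 draws cells the other way, toward the sphingosine 1-phosphate of blood and lymph, and CCR7 guides lymphoid cells and lymphoid progenitors. The study asked in a homing assay whether progenitors of the 2 genotypes reach the marrow alike. It reported a similar efficiency for sorted LSK cells, without assaying MPP3 and MPP4 apart. The transcripts of the receptors concerned are described here.

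Library totals ranged from 24823708 to 48703193 counts, and 3 counts, the limit that a count of 0 allows, equaled 0.0619 to 0.118 normalized CPM. CPM denotes a count scaled to the library size, here after normalization by the trimmed mean of M-values (TMM). The lowest count of any of the 9 genes was 28, for Ccr7 in 1 MPP3 library. By marker sums the populations matched their names. The 10 myeloid progenitor markers summed to 5694 to 15900 CPM in MPP3 and 2103 to 3771 CPM in MPP4. The 10 lymphoid progenitor markers summed to 1318 to 1914 and 4532 to 5235 CPM. Not every marker went with its list. Of the myeloid markers, the test in WT described below called 7 higher and 1 lower in MPP3. Of the lymphoid markers it called 1 higher and 9 lower. Markers of other cells were not even. The 10 mast cell and basophil markers summed to 381.6 to 715 CPM in MPP3 and 67.3 to 113 CPM in MPP4, with Cma1 and Gzmb at 0 counts in the 8 MPP4 libraries. The 10 neutrophil markers summed to 21.9 to 96.6 and 4.80 to 20.8 CPM. Ly6g was at 0 counts in the 8 MPP3 libraries, while Cxcr2 was at 5.63 to 25.8 CPM and S100a8 at 5.05 to 21.8 CPM in them, and Ngp and Camp reached 22.3 and 17.9 CPM. The 10 stromal and endothelial markers summed to 53.2 to 73.8 and 36.8 to 47.4 CPM. In that list the endothelial cadherin Cdh5 had no more than 12 counts in any library, but Tek was at 16.6 to 33.0 CPM in MPP3 and 1.62 to 14.1 CPM in MPP4, and Emcn at 21.8 to 36.5 and 22.4 to 33.3 CPM. The 11 mature T and NK cell markers summed to 544.1 to 751.6 CPM in MPP3 and 349.6 to 525.6 CPM in MPP4, of which Nkg7 reached 634.1 and 408 CPM and Cd3e no more than 2.99 and 0.850 CPM. The mature B cell markers (67.8 to 84.8 and 78.5 to 97.6 CPM) and the erythroid markers (42.1 to 96.4 and 20.2 to 90.5 CPM) overlapped between the populations. Plasma cell markers were highest in MPP3 WT replicates 1 and 2, at 764 and 834.5 CPM, against 180.1 to 412.7 CPM in the other 6 MPP3 libraries.

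Levels were compared between genes per kilobase of exonic sequence. The length was that of all annotated exons of a gene together, from 1808 bases for Cxcr4 to 13978 for Itga4. The order of the genes depends on this choice of length. In MPP4 WT, Selplg stood highest at 116 ± 2.78 CPM per kb (SD, n = 4), followed by Cd44 at 42.5 ± 3.06 and Itgb7 at 29.0 ± 3.37 CPM per kb. Itgal at 14.9 ± 1.23, Ptk2b at 12.9 ± 1.01, Ccr7 at 10.5 ± 0.950 and Cxcr4 at 6.47 ± 2.77 CPM per kb came next. Itga4 at 4.39 ± 0.872 and S1pr1 at 3.42 ± 0.476 CPM per kb were lowest. The ranges of mean ± SD overlapped for the neighbors Itgal and Ptk2b, Cxcr4 and Itga4, and Itga4 and S1pr1, so their order lies within the spread of the libraries. In MPP3 WT the top was the same, with Selplg at 90.1 ± 8.33, Cd44 at 31.6 ± 1.69 and Itgb7 at 16.6 ± 1.66 CPM per kb. The bottom was different, since S1pr1 stood at 7.20 ± 1.57, Itga4 at 5.90 ± 0.842, Cxcr4 at 5.06 ± 1.81 and Ccr7 at 1.00 ± 0.683 CPM per kb. Ptk2b and Itgal, at 11.2 ± 1.00 and 10.9 ± 1.29 CPM per kb, could not be ordered there, nor could S1pr1 and Itga4, or Itga4 and Cxcr4. In the KO groups Selplg was again highest, at 105 ± 10.4 CPM per kb in MPP3 and 139 ± 14.1 in MPP4, while the lowest level was that of Ccr7 in MPP3 (1.26 ± 0.902) and of S1pr1 in MPP4 (2.00 ± 0.497).

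**Figure D1:**
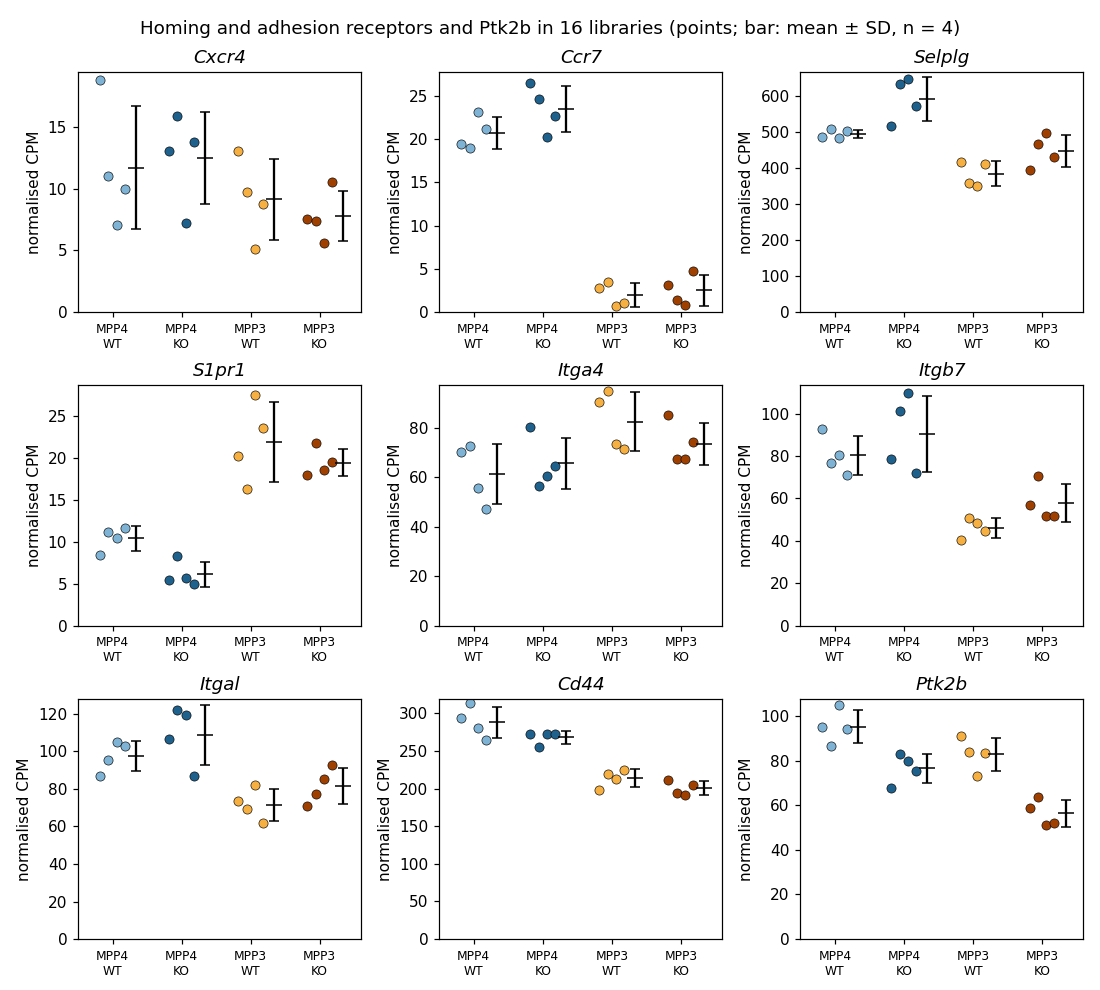
Normalized CPM (vertical axes, from 0) of the 9 genes in 4 MPP4 WT, 4 MPP4 KO, 4 MPP3 WT and 4 MPP3 KO libraries. Points are libraries in the order of replicate numbers and bars are the mean ± SD. Ccr7 lay at 0.674 to 4.70 CPM in MPP3 and 19.0 to 26.5 CPM in MPP4, and S1pr1 at 16.3 to 27.6 CPM in MPP3 and 4.96 to 11.7 CPM in MPP4.

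The first comparison asked how the 2 populations differ in these receptors. In WT, edgeR's quasi-likelihood test at a false discovery rate (FDR) under 0.1 called 7 of the 9 genes, where it called 15.1% of all genes tested. Of these, 2 were higher in MPP3 (S1pr1 and Itga4; 6.8% of all genes) and 5 lower (Ccr7, Selplg, Itgb7, Itgal and Cd44; 8.33% of all genes). The 4 MPP3 and 4 MPP4 libraries did not overlap for 6 of the 9 genes, all of those called but Itga4, against 15.9% of all genes. The median log2 fold change of the 9 genes was −0.36, and that of all genes tested was 0.00 (−0.000387). In KO, 7 genes were again called, against 17.9% of all genes: S1pr1 was higher (8.71% of all genes), and Ccr7, Selplg, Itgb7, Itgal, Cd44 and Ptk2b were lower (9.18%). There the libraries did not overlap for 6 genes, those called other than Itgal, against 17.2% of all genes, and the median was −0.42. The MPP3 and MPP4 libraries of a mouse deviated together. A fit with mouse as a replicate block, which pairs them, thus stands beside each call of the 9 genes that it changed. With that block 7 genes were called in WT, against 24.8% of all genes, and 9 in KO, against 28.3%. The counts and medians of this paragraph hold Ccr7, which passed the filter through MPP4 only and so had to differ. In sorted bulk samples, fewer cells that express a gene and less RNA per cell cannot be told apart.

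Of the 9 genes, Ccr7 had the largest fold change between the populations. CCR7 binds CCL19 and CCL21 and directs lymphocytes and lymphoid progenitors. In WT it measured 2.77, 3.47, 0.674 and 1.01 CPM in MPP3 (92, 88, 28 and 40 counts) and 19.5, 19.0, 23.1 and 21.1 CPM in MPP4. The KO values were 3.14, 1.36, 0.769 and 4.70 CPM in MPP3 and 26.5, 24.6, 20.3 and 22.6 CPM in MPP4. Each MPP3 library lay below each MPP4 library. Since Ccr7 passed the filter through MPP4 alone, where it was high, it had to differ to be in the test. MPP3 differed from MPP4 by a log2 fold change of −3.41 ± 0.50 (SE) in WT, which is 10.7-fold lower in MPP3 (FDR 0.000171), and −3.23 ± 0.49 in KO (9.36-fold lower, FDR 0.000223). The libraries were unlike in spread as well. The coefficient of variation of Ccr7 was 68.2% and 71.6% in MPP3 WT and KO, and 9.09% and 11.3% in MPP4. Within mice, the difference ranged from −4.99 to −2.25 on the log2 scale. The MPP3 WT libraries with the higher Ccr7 levels, replicates 1 and 2, were those highest in plasma cell markers, and MPP3 KO replicate 4, highest of all in Ccr7, stood at 349 CPM for those markers. The part of such cells in Ccr7 was not tested beyond leaving out both of those WT libraries, without which the WT fold change was −4.61, still called.

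Cxcr4, the receptor that retains progenitors at CXCL12, was called in neither genotype by the unpaired edgeR fit of all 16 libraries. It measured 13.1, 9.70, 5.10 and 8.73 CPM in MPP3 WT and 18.8, 11.0, 7.06 and 9.97 CPM in MPP4 WT. It measured 7.54, 7.37, 5.62 and 10.5 CPM in MPP3 KO and 13.1, 15.9, 7.22 and 13.8 CPM in MPP4 KO. The groups overlapped, but mouse WT1 was highest and mouse WT3 lowest in both WT populations, and MPP3 lay below MPP4 in 8 of 8 mice. The log2 fold change was −0.36 ± 0.32 in WT (FDR 0.598) and −0.69 ± 0.33 in KO (edgeR FDR 0.196). Without MPP4 KO replicate 3 the unpaired fit called it in KO (−0.88, FDR 0.0967). With mouse as a replicate block it was −0.34 ± 0.17 in WT (FDR 0.183) and −0.67 ± 0.17 in KO, where it was called (FDR 0.0109). Whether the population difference depends on genotype was tested as an interaction, with a difference of −0.33 ± 0.23 under the block (FDR 0.911).

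S1pr1, the receptor for the exit signal, went the other way and was higher in MPP3. In WT it measured 20.3, 16.3, 27.6 and 23.6 CPM in MPP3 and 8.38, 11.1, 10.4 and 11.7 CPM in MPP4. In KO it measured 18.0, 21.8, 18.7 and 19.5 CPM in MPP3 and 5.39, 8.33, 5.74 and 4.96 CPM in MPP4. No MPP3 library fell into the MPP4 range. MPP3 differed from MPP4 by a log2 fold change of 1.08 ± 0.18 in WT (2.11-fold, FDR 0.000732) and 1.67 ± 0.19 in KO (3.19-fold, FDR 1.06e-05). S1pr1 was higher in MPP3 in 8 of 8 mice, by 0.55 to 1.96 on the log2 scale. Endothelial cells express S1pr1 strongly. The stromal and endothelial marker sums above, and Tek within them, were likewise higher in MPP3, while Emcn overlapped between the populations. Cdh5 was at or near 0 counts in both populations, and the part of such cells in the S1pr1 difference was not tested.

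**Figure D2:**
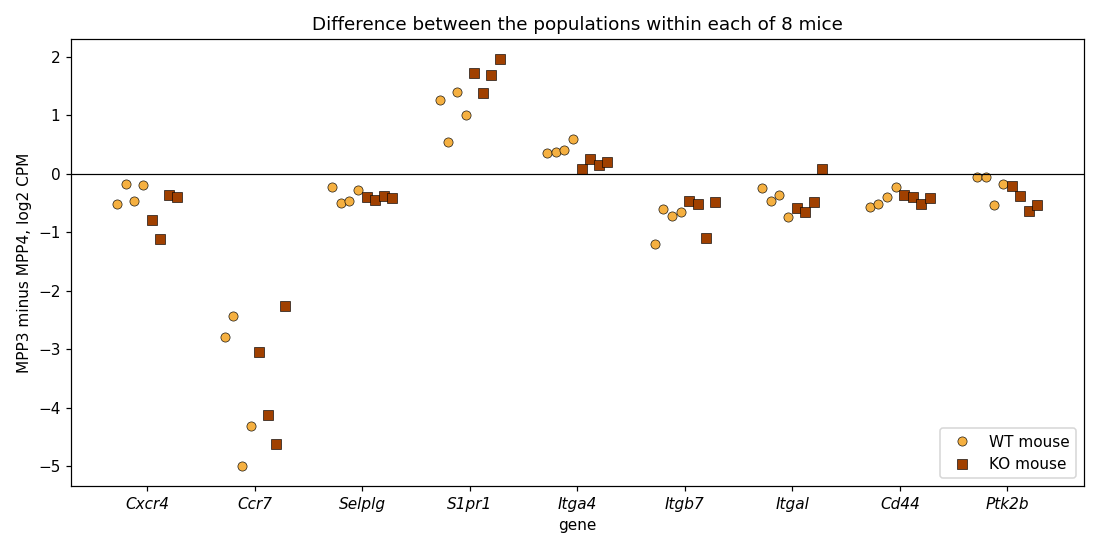
Difference between the MPP3 and MPP4 library of the same mouse in log2 CPM (vertical axis) for each gene (horizontal axis), with circles for the 4 WT mice and squares for the 4 KO mice. S1pr1 and Itga4 lay above 0 in 8 of 8 mice, Itgal below 0 in 7 of 8, and the other 6 genes below 0 in 8 of 8.

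Selplg encodes PSGL-1, the ligand by which leukocytes roll on P-selectin and E-selectin. It was the most abundant of the 9 genes in every group and was lower in MPP3. In WT it measured 418.1, 359.1, 349.6 and 412.9 CPM in MPP3 and 487.4, 507.8, 483 and 502.6 CPM in MPP4. The KO values were 394.3, 467.9, 496.8 and 431 CPM in MPP3 and 515.9, 634, 646.6 and 572.1 CPM in MPP4. The populations did not overlap in either genotype. The log2 fold change was −0.36 ± 0.08 in WT (FDR 0.00845) and −0.40 ± 0.08 in KO (FDR 0.00343), about 1.29-fold and 1.32-fold lower. Within the KO mice the difference was −0.40 ± 0.03 (SD, n = 4 mice), the smallest spread between mice of any of the 9 genes in either genotype.

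The integrin chains moved in different directions. Itga4 encodes the α4 chain, which pairs with β1 to bind VCAM1 and with β7 to bind MAdCAM1, and Itgb7 encodes that β7 chain. Their promoters are shown because the chains of 1 receptor differed between MPP3 and MPP4 in opposite directions. Each sequence is the RefSeq promoter of assembly GRCm38.p6, from 250 bases before to 50 after the annotated start, written 5′ to 3′ on the strand of the gene. Capitals mark matches to 7 motifs, each searched on both strands. For EBF1 the letters were CCCNNGGG, for PU.1 they were GAGGAAG, and an E-box was either CAGCTG or else CAGGTG. For RUNX they were TGTGGT, for GATA factors AGATAA, for C/EBP they were TTGCNNAA, and for KLF factors CCCCACCC.
Itga4, chr2:79255176-79255475, plus strand: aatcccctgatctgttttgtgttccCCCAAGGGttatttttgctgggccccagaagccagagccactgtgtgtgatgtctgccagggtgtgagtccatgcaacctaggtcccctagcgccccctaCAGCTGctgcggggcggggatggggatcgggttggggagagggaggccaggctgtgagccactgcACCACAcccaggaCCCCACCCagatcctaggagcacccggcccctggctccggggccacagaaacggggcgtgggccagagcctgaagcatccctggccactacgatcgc
Itgb7, chr15:102231886-102232185, minus strand: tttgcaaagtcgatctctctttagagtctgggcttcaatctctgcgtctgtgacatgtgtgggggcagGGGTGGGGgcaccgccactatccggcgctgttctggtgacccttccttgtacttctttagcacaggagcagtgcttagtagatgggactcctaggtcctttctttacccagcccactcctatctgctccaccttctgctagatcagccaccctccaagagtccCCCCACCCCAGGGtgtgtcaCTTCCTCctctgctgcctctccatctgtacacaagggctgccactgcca
The Itga4 promoter held the EBF1 letters at −225, an E-box at −125, the RUNX letters at −60 and the KLF letters at −47, counted from the start site to the left end of the match. The Itgb7 promoter held the KLF letters at −182 and −19, the EBF1 letters at −14, which share bases with the KLF match before them, and the PU.1 letters at 2. Among 32851 RefSeq promoters of this length, 13.7% held the EBF1 letters, 13.6% the PU.1 letters, 32.9% an E-box, 16.8% the RUNX, 11.2% the GATA, 10.8% the C/EBP and 9.99% the KLF letters. These matches describe the sequence and are not evidence that a factor binds.

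Itgb7 measured 40.2, 50.7, 48.6 and 44.8 CPM in MPP3 WT and 92.9, 76.8, 80.5 and 70.8 CPM in MPP4 WT. In KO it measured 57.1, 70.7, 51.6 and 51.5 CPM in MPP3 and 78.6, 101.3, 109.9 and 71.9 CPM in MPP4. It was thus lower in MPP3 with no overlap, by a log2 fold change of −0.80 ± 0.14 in WT (1.74-fold, FDR 0.000840) and −0.65 ± 0.14 in KO (1.57-fold, FDR 0.00410). Itga4 measured 90.3, 94.8, 73.6 and 71.4 CPM in MPP3 WT and 70.2, 72.7, 55.5 and 47.1 CPM in MPP4 WT. The KO values were 85.4, 67.3, 67.6 and 74.1 CPM in MPP3 and 56.7 to 80.5 CPM in MPP4. The groups overlapped in both genotypes, and mice WT1 and WT2 were high in both populations. The log2 fold change of Itga4 was 0.43 ± 0.15 in WT (FDR 0.0743) and 0.17 ± 0.15 in KO (edgeR FDR 0.556). With mouse as a replicate block it was 0.44 ± 0.07 in WT (FDR 0.000445) and 0.17 ± 0.07 in KO, where it was then called (FDR 0.0946).

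The difference in Itga4 between the populations was larger in each WT mouse, at 0.36, 0.38, 0.41 and 0.60 on the log2 scale, than in any KO mouse, at 0.08, 0.25, 0.16 and 0.20. The interaction that tests this had an estimate of −0.26 ± 0.21 (edgeR FDR 1.00), and of −0.27 ± 0.10 with the block (FDR 0.774), so it was not called over all genes. The unblocked call of Itga4 in WT was lost without MPP3 WT replicate 1 (FDR 0.156), MPP3 WT replicate 2 (0.195), MPP4 WT replicate 3 (0.190) or MPP4 WT replicate 4 (0.218), and without both MPP3 WT libraries rich in plasma cell markers the fold change was 0.25 (FDR 0.433). It was also lost without both libraries of mouse WT1 (fold change 0.46, FDR 0.112), in a fit of the 8 WT libraries (0.43, FDR 0.112) and over all genes with at least 1 count (0.42, FDR 0.129). Itga4 shares 1124 exonic bases with Cerkl on the opposite strand, and since the use of strand in counting is not stated, its counts are uncertain to that extent.

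Itgal encodes the αL chain of LFA-1, which binds ICAM1. It measured 73.7, 69.1, 81.9 and 61.6 CPM in MPP3 WT and 87.1, 95.5, 104.9 and 103 CPM in MPP4 WT. In KO it measured 70.8, 77.5, 85.2 and 92.5 CPM in MPP3 and 106.8, 122.1, 119.5 and 87.0 CPM in MPP4. MPP3 was lower, without overlap in WT and with mouse KO4 as an exception in KO, where MPP3 stood above MPP4 by 0.09 on the log2 scale. MPP3 differed from MPP4 by a log2 fold change of −0.45 ± 0.12 in WT (FDR 0.0173) and −0.42 ± 0.12 in KO (FDR 0.0227).

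Cd44, a receptor for hyaluronan that also carries selectin ligands, was lower in MPP3 with little spread. It measured 198.6, 219.6, 213.1 and 225.1 CPM in MPP3 WT and 294.1, 313.3, 280.5 and 264.4 CPM in MPP4 WT. The KO values were 211.7, 194.5, 191.2 and 204.9 CPM in MPP3 and 272.8, 254.8, 272.7 and 272.7 CPM in MPP4. The populations did not overlap, and the log2 fold change was −0.43 ± 0.06 in WT (1.35-fold lower, FDR 0.000149) and −0.42 ± 0.06 in KO (1.34-fold lower, FDR 0.000164). The Cd44 promoter is shown beside that of Itgb7, since both genes were lower in MPP3.
Cd44, chr2:102901616-102901915, minus strand: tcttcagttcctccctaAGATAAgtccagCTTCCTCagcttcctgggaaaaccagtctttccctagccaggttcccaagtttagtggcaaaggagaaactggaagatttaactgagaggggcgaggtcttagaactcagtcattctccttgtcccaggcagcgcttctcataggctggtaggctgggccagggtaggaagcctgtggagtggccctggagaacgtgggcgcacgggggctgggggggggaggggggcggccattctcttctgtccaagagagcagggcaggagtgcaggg
It held the GATA letters at −233 and the PU.1 letters at −221. The PU.1 letters were thus in the promoters of both genes, and 13.6% of all promoters held them. RefSeq promoters were matched for 4 of the 9 genes, and that of Cxcr4 held none of the 7 motifs. Promoters of Ccr7, Selplg, S1pr1, Itgal and Ptk2b were not analyzed here.

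Ptk2b encodes PYK2, a cytoplasmic tyrosine kinase activated by chemokine receptors and integrins. It measured 91.0, 84, 73.0 and 83.6 CPM in MPP3 WT and 94.9, 86.8, 105 and 94.4 CPM in MPP4 WT. In KO it measured 58.9, 63.7, 51.2 and 51.8 CPM in MPP3 and 68.0, 83.0, 79.8 and 75.4 CPM in MPP4. The populations overlapped in WT and not in KO. The log2 fold change was −0.20 ± 0.09 in WT (FDR 0.215) and −0.44 ± 0.09 in KO (FDR 0.00395), and the interaction was −0.24 ± 0.13 (edgeR FDR 1.00). With mouse as a fixed replicate block Ptk2b was again not called in WT (FDR 0.151), but limma-voom with mouse as a random replicate block called it there (log2 fold change −0.22, FDR 0.0552). These calls do not show that the genotypes differ.

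The second comparison asked what the KO label does to these genes within each population. In MPP3, edgeR called 1 of the 9 genes, Ptk2b, against 0.0676% of all genes. At an unadjusted p under 0.05 it had 3 genes (Ptk2b, Selplg and Itgb7), against 10.5% of all genes, and the DESeq2 Wald test called 1, Ptk2b, against 1.82%. The 4 WT and 4 KO libraries did not overlap for 2 genes, Ptk2b and Itgb7, against 4.58%. In MPP4, edgeR called 0 of the 9 genes, against 0.0169% of all genes. There 3 genes, S1pr1, Ptk2b and Selplg, had an unadjusted p under 0.05 (12.8% of all genes), did not overlap (7.27%) and were called by DESeq2 (2.58%).

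Some marker sums stood higher in most KO libraries, with overlap between the genotypes. In MPP3, the 10 monocyte and dendritic cell markers summed to 56.5 to 118.3 CPM in WT and to 85.1, 228.9, 242.9 and 278 CPM in KO replicates 1 to 4, with Ly6c2 the most abundant of them. The myeloid progenitor markers summed to 5694 to 9524 CPM in MPP3 WT and to 6789, 12350, 15840 and 15900 CPM in those KO libraries. For these 2 lists KO replicate 1 lay within the WT ranges and the other 3 above them. The mast cell and basophil markers summed to 409.7 to 538.9 CPM in MPP3 WT and to 381.6, 558.8, 715 and 653.3 CPM in MPP3 KO replicates 1 to 4. In MPP4 the monocyte and dendritic cell markers summed to 40.2 to 46.3 CPM in WT and 34.1 to 62.7 CPM in KO, and the myeloid markers to 2103 to 2788 and 2491 to 3771 CPM. The stromal and endothelial markers summed to 36.8 to 47.4 CPM in MPP4 WT and 38.3 to 46.4 CPM in MPP4 KO. In that list Tek was at 1.62 to 5.28 CPM in MPP4 WT and 9.45 to 14.1 CPM in MPP4 KO without overlap. Emcn went the other way without overlap, at 30.1 to 33.3 and 22.4 to 27.9 CPM. In MPP3 WT and KO, Tek was at 16.6 to 33.0 and 20.8 to 32.2 CPM and Emcn at 27.1 to 36.5 and 21.8 to 33.4 CPM. The part of these shifts in the KO differences below was not tested.

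Ptk2b was lower in the libraries labelled KO in MPP3. Its mean fell from 82.9 ± 7.43 to 56.4 ± 5.98 CPM, and its highest KO library, at 63.7 CPM, lay below its lowest WT library, at 73.0 CPM. KO differed from WT by a log2 fold change of −0.55 ± 0.09, which is 1.47-fold lower (edgeR FDR 0.0470, DESeq2 FDR 7.03e-05). In MPP4 the means were 95.3 ± 7.48 CPM in WT and 76.5 ± 6.50 CPM in KO, without overlap, and the log2 fold change was −0.32 ± 0.09 (FDR 0.193). Both comparisons used mice of the same 2 groups, and MPP3 and MPP4 of a mouse are not independent. The MPP3 call was lost without MPP3 WT replicate 1 (FDR 0.112), MPP3 WT replicate 2 (0.149), MPP3 KO replicate 3 (0.122) or MPP3 KO replicate 4 (0.159). It was also lost without both libraries of mouse WT1 (0.179), with age as a term (0.110), with mouse as a random replicate block in limma-voom (0.105), in a fit of the 8 MPP3 libraries (0.335) and without the pair of MPP3 WT libraries rich in plasma cell markers (0.474). In these 9 fits the log2 fold change ran from −0.62, with age, to −0.47, without that pair.

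S1pr1 had the largest fold change of the 9 genes in MPP4. Its mean was 10.4 ± 1.45 CPM in WT and 6.11 ± 1.51 CPM in KO, and the highest KO library, at 8.33 CPM (311 counts), lay just below the lowest WT library, at 8.38 CPM (355 counts). The log2 fold change was −0.77 ± 0.19, or 1.70-fold lower (edgeR FDR 0.147), and DESeq2 called it (FDR 0.0248). Of the stromal and endothelial list, Tek stood higher in MPP4 KO and Emcn lower, at 30.1 to 33.3 CPM in WT and 22.4 to 27.9 CPM in KO. The part of such cells in the S1pr1 change was not tested. In MPP3 the means were 21.9 ± 4.79 and 19.5 ± 1.67 CPM, with a log2 fold change of −0.17 ± 0.18 (FDR 0.799). With sex as a term the MPP4 change was called (FDR 0.0604), as it was without the pair of MPP3 WT libraries rich in plasma cell markers (0.0836).

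Selplg stood higher in KO in both populations, with means of 385 ± 35.6 and 448 ± 44.5 CPM in MPP3 and of 495 ± 11.9 and 592 ± 60.4 CPM in MPP4. The log2 fold changes of 0.22 ± 0.08 (FDR 0.377) and 0.26 ± 0.08 (FDR 0.226) were not called by edgeR, and DESeq2 called the second (FDR 0.0994). Itgb7 had means of 46.1 ± 4.59 and 57.7 ± 9.05 CPM in MPP3, where the lowest KO library, at 51.5 CPM, lay just above the highest WT library, at 50.7 CPM. Its log2 fold change was 0.33 ± 0.14 in MPP3 (FDR 0.430) and 0.17 ± 0.14 in MPP4 (FDR 0.627).

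For the other genes the size of the KO effect is given by its interval. The 95% interval of the KO effect on Cd44 ran from −0.23 to 0.04 on the log2 scale in MPP3 and from −0.23 to 0.03 in MPP4, the narrowest of the set. For Itgal it ran from −0.06 to 0.43 and from −0.09 to 0.40, and for Itga4 from −0.47 to 0.14 and from −0.21 to 0.41. Cxcr4 was less well determined, at −0.92 to 0.45 in MPP3 and −0.58 to 0.78 in MPP4, and so was Ccr7, at −0.65 to 1.40 and −0.75 to 1.12.

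**Figure D3:**
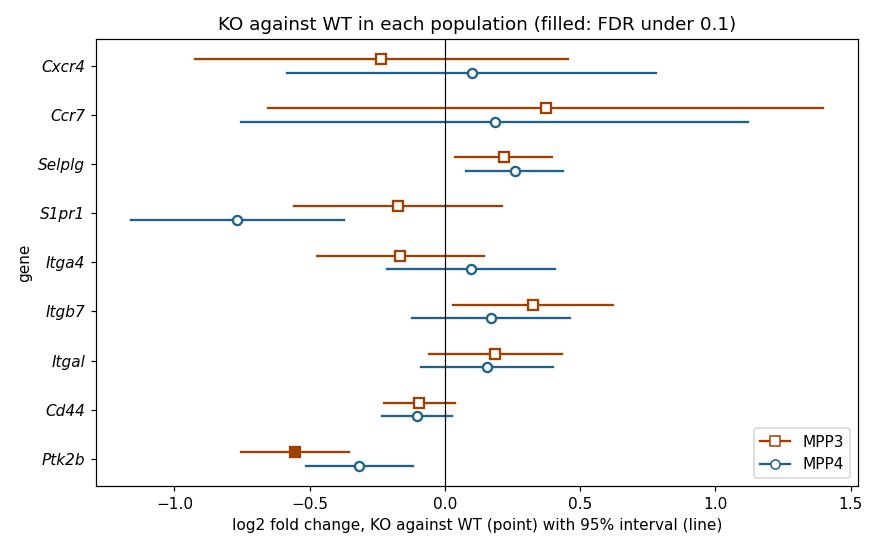
Log2 fold change of KO against WT (horizontal axis) for each gene in MPP3 (squares) and MPP4 (circles), with lines for the 95% interval and filled symbols for an FDR under 0.1. The filled symbol is Ptk2b in MPP3 at −0.55. The intervals of S1pr1 in MPP4, Ptk2b and Selplg in both populations and Itgb7 in MPP3 lie to 1 side of 0.

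Whether the KO effect differs between MPP3 and MPP4 was tested as an interaction, which called 0 of the 9 genes and 0% of all genes. An unadjusted p under 0.05 was found for 1 of the 9 genes, S1pr1, and for 2.28% of all genes. The effect on S1pr1 was higher in MPP3 by 0.60 ± 0.26 on the log2 scale (edgeR FDR 1.00). With mouse as a replicate block, 0.0169% of all genes and 0 of the 9 were called. Of the 9 genes, S1pr1 then had the smallest FDR, with a difference of 0.63 ± 0.22 (FDR 0.769), and Itga4 followed. The DESeq2 Wald test called 0 of the 9 genes for the interaction.

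The wider pathway was read from 8 lists with 201 different genes, of which 137 passed the filter. The lists were chosen with results of these data known. Mfsd2b passed through MPP3 only and Ccr9, Itgax and Zap70 through MPP4 only, so these 4 had to differ, and the counts and medians that hold them describe the genes tested, not all those listed. In WT, 25 of the 137 were higher in MPP3 (18.2%, against 6.8% of all genes) and 26 lower (19.0%, against 8.33%). In KO, 24 were higher (17.5%, against 8.71%) and 31 lower (22.6%, against 9.18%). These counts and the calls of pathway genes below come from the unpaired fit, and their paired values are not given. The median log2 fold change was −0.02 in WT and 0.01 in KO, so the lists moved in both directions. For KO against WT, 0 of the 137 were called in MPP3 and 0 in MPP4. At an unadjusted edgeR p under 0.05 there were 26 in MPP3 (19.0%, against 10.5% of all genes) and 32 in MPP4 (23.4%, against 12.8%). DESeq2 called 10 of the 137 in MPP3 (7.3%, against 1.82% of all genes) and 8 in MPP4 (5.84%, against 2.58%), with 0 to 3 in any 1 list.

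Of 21 chemokine receptors, 5 passed the filter, and in WT 1 was higher and 1 lower in MPP3. Over all genes these shares were 6.8% and 8.33%. Cxcr2, the neutrophil receptor for CXCL1 and CXCL2, was at 9.43 ± 2.54 CPM in MPP3 and 2.40 ± 0.600 CPM in MPP4 (log2 fold change 1.96 ± 0.32, FDR 0.000446). Ccr9, the receptor for CCL25 that guides thymus-seeding progenitors, was at 0.774 ± 0.733 and 14.0 ± 1.06 CPM (−4.11 ± 0.51, FDR 3.64e-05), a fold change whose difference from that of Ccr7 was not tested. Cxcr2 is also on the list of neutrophil markers, which were higher in MPP3, and the part of neutrophils in it was not tested.

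Of 28 genes tested around CXCR4, from its ligand partners to its G proteins and regulators, 4 were higher and 4 lower in MPP3 WT. The shares over all genes were 6.8% and 8.33%. Cd74, the invariant chain, which also binds MIF together with CXCR4, was at 34.7 ± 10.3 CPM in MPP3 and 96.6 ± 24.6 CPM in MPP4 (−1.48 ± 0.21, FDR 0.000131). Rgs10, which shortens G protein signaling, was at 15.2 ± 1.27 and 25.8 ± 1.72 CPM. Grk3, a kinase that desensitizes receptors such as CXCR4, went the other way at 36.1 ± 2.06 and 25.4 ± 2.99 CPM (0.51 ± 0.18, FDR 0.0818), as did the deubiquitinase Usp14 at 134.5 ± 13.7 and 112 ± 5.87 CPM (FDR 0.0683).

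Of 13 genes tested around sphingosine 1-phosphate, 3 were higher and 3 lower in MPP3 WT (6.8% and 8.33% of all genes). Mfsd2b, an exporter of sphingosine 1-phosphate in red cells and platelets, was at 8.53 ± 2.11 CPM in MPP3 and 0.335 ± 0.407 CPM in MPP4 (4.62 ± 0.91, FDR 0.00230). Spns2, the endothelial exporter, was at 81.3 ± 0.693 and 51.2 ± 6.27 CPM (0.67 ± 0.09, FDR 8.51e-05). Cd69, which removes S1PR1 from the surface and so holds lymphocytes in tissue, was lower in MPP3 at 57.8 ± 21.5 against 160 ± 58.7 CPM (−1.47 ± 0.42, FDR 0.0295), opposite to S1pr1 itself. Klf3 was lower too, at 19.5 ± 7.59 against 43.3 ± 14.7 CPM (FDR 0.0105).

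Of 19 selectin and selectin ligand genes tested, 4 were higher and 2 lower in MPP3 WT (6.8% and 8.33% of all genes). Selp, which encodes P-selectin itself, was at 65.5 ± 22.8 CPM in MPP3 and 13.3 ± 4.57 CPM in MPP4 (2.30 ± 0.27, FDR 2.33e-05). St3gal6, a sialyltransferase that helps to build selectin ligands, was lower at 4.54 ± 1.55 against 12.8 ± 3.41 CPM (−1.49 ± 0.30, FDR 0.00313), the same direction as Selplg, and Cd34 was lower by 0.13 ± 0.05 on the log2 scale (−0.13, FDR 0.0966).

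Of 12 integrin chains tested, 6 were higher and 2 lower in MPP3 WT (6.8% and 8.33% of all genes). Itga2b, the αIIb chain of megakaryocytes and early progenitors, was at 106 ± 2.59 CPM in MPP3 and 12.5 ± 1.17 CPM in MPP4 (3.08 ± 0.25, FDR 3.99e-07), and its partner Itgb3 at 9.89 ± 2.58 and 3.27 ± 0.917 CPM (1.60 ± 0.26, FDR 0.000555). Itgax, the αX chain of dendritic cells, was lower at 1.03 ± 0.222 against 4.20 ± 1.27 CPM (FDR 0.0738), and Itgb5 at 4.80 ± 2.59 against 13.6 ± 3.86 CPM (FDR 0.0234). Of 12 integrin ligands and related adhesion molecules tested, 2 were higher and 2 lower (6.8% and 8.33% of all genes). Esam was at 50.5 ± 15.9 and 8.83 ± 1.37 CPM (2.51 ± 0.21, FDR 5.30e-07) and Icam4 at 19.5 ± 3.07 and 5.70 ± 0.907 CPM (1.78 ± 0.18, FDR 4.25e-06), while Alcam (−0.32 ± 0.10) and Sirpa (−0.41 ± 0.14) were lower.

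Of 41 genes of integrin activation and signaling tested, 4 were higher and 12 lower in MPP3 WT, with a median of −0.18. The shares over all genes were 6.8% and 8.33%. Lck, a kinase of lymphoid cells, was at 45.1 ± 4.87 CPM in MPP3 and 135 ± 10.3 CPM in MPP4 (−1.58 ± 0.11, FDR 7.97e-08), and Zap70 at 1.01 ± 0.353 and 4.77 ± 1.12 CPM (−2.25 ± 0.48, FDR 0.00470). Ptpn12, a phosphatase of focal adhesion proteins, was higher at 24.1 ± 4.49 against 11.9 ± 2.71 CPM (1.02 ± 0.19, FDR 0.00182), as was Ilk, the integrin-linked kinase, at 8.40 ± 0.362 against 5.77 ± 0.650 CPM (FDR 0.0201). Of 9 genes tested around CD44 and hyaluronan, 1 was called, against 15.1% of all genes. It was Srgn (serglycin), which was higher at 860 ± 107 against 575 ± 30.3 CPM (0.58 ± 0.07, FDR 3.11e-05).

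**Figure D4:**
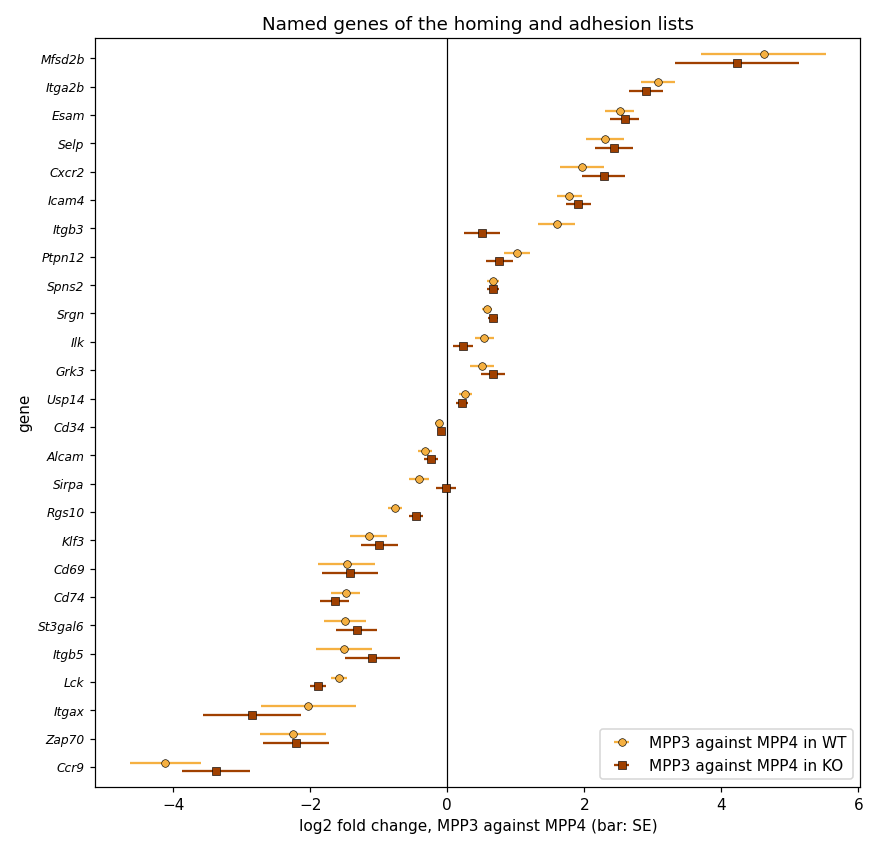
Log2 fold change of MPP3 against MPP4 (horizontal axis) in WT (circles) and KO (squares) for pathway genes described from the 8 lists, with bars for the SE. In WT the values run from −4.11 for Ccr9, with 1 to 74 counts in MPP3 WT, to 4.62 for Mfsd2b, with 2 to 45 counts in MPP4 WT, and both passed the filter only through the population where they were high.

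For KO against WT, the pathway genes with the smallest p were B4galt1 in MPP3 and Gnai2 in MPP4. B4galt1, a galactosyltransferase that acts in building selectin ligands, was at 79.8 ± 9.81 CPM in WT and 105 ± 7.44 CPM in KO (log2 fold change 0.40 ± 0.09, edgeR FDR 0.147). Gnai2, the G protein subunit through which CXCR4, CCR7 and S1PR1 signal, was at 90.7 ± 9.85 CPM in MPP4 WT and 128 ± 27.0 CPM in MPP4 KO (0.50 ± 0.13, edgeR FDR 0.166). Neither was called by edgeR. Both were picked by smallest p and did not overlap between genotypes there, against 4.58% of all genes in MPP3 and 7.27% in MPP4. Each overlapped in the other population. B4galt1 was at 87.2 to 100.6 CPM in MPP4 WT and 90.6 to 102.3 CPM in MPP4 KO. Gnai2 was at 73.2 to 90.7 CPM in MPP3 WT and 88.0 to 107.4 CPM in MPP3 KO.

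Across the 16 libraries the genes most like each receptor in log2 CPM were named as a description, over libraries that share mice and populations. Ccr7 was most like Cox6a2 (Pearson r = 0.966) and Pou2f2 (0.963), S1pr1 like Mamdc2 (0.962) and S100a11 (0.956), and Selplg like Irf8 (0.952) and Ifi27l2a (0.945). Cd44 was most like Gm28417 (0.952) and Zmiz1 (0.949), Itgb7 like Tnni2 (0.937) and Smap2 (0.917), and Ptk2b like Arhgap27 (0.931) and Pgghg (0.917). Cxcr4 (0.859 with Atg4d, 0.843 with Baz1b) and Itga4 (0.850 with Fam84b, 0.842 with Gm15657) had no neighbor above 0.9, and Itgal reached 0.903 with 4833445I07Rik and 0.901 with Cacfd1. Among the 9 genes themselves, the most negative r was that of Ccr7 with S1pr1 (−0.883) and the most positive that of Ccr7 with Cd44 (0.866). Cxcr4 and Itga4 were nearly unrelated (0.0451).

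By coordinates in GRCm38, the build also called mm10, Cxcr4 (ENSMUSG00000045382) lies on chromosome 1 from 128588199 to 128592293, Ccr7 (ENSMUSG00000037944) on chromosome 11 from 99144196 to 99155077, and Selplg (ENSMUSG00000048163) on chromosome 5 from 113818536 to 113832644. S1pr1 (ENSMUSG00000045092) lies on chromosome 3 from 115710433 to 115715072, Itga4 (ENSMUSG00000027009) on chromosome 2 from 79255426 to 79333123, and Itgb7 (ENSMUSG00000001281) on chromosome 15 from 102215995 to 102231944. Itgal (ENSMUSG00000030830) lies on chromosome 7 from 127296260 to 127335138, Cd44 (ENSMUSG00000005087) on chromosome 2 from 102811141 to 102901665, and Ptk2b (ENSMUSG00000059456) on chromosome 14 from 66153257 to 66281052. All 9 are protein coding. Besides Cerkl at Itga4, the annotation places the small RNA gene Gm23731 in an intron of Cd44, and no gene over the other 7.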

How the data were processed

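Sorted MPP3 and MPP4 cells of 8 mice were sequenced as paired reads of 100 bases. Per the labels and the methods of the study, the authors used STAR 2.7.3a for alignment to mm10 and featureCounts 2.0.0 for gene counts. The authors deposited raw read counts, not normalized, 1 table per population. They also deposited a normalized signal, the counts divided by DESeq2 1.28.1 size factors, for genes whose mean exceeded 100 counts in at least 1 group. Here that table served as a check: all 9 genes were within 0.12% of count over size factor. The annotation and use of strand are not given in the sources used here, so overlapping genes are uncertain. GENCODE (GRCm38) matched 47224 of 47937 identifiers.

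The raw counts went into edgeR 4.0.16 under R 4.3.3 (TMM, quasi-likelihood F-test, legacy deviances) on the 11831 genes that passed the filter. The model had a mean for each of 4 groups over 16 libraries, and FDR (Benjamini-Hochberg over all genes tested) under 0.1 was called. Intervals are at 95%. Alternatives used DESeq2 1.42.0, limma 3.58.1 (voom), other filters and scaling, sex, age, pairing and left-out libraries. The method was tested on simulated data. Reads carried no molecular identifiers, so limits cover counting error only, and totals of 24823708 to 48703193 counts set the precision. No pair of replicates was identical (chi-square 31.2 to 114 per gene). The labels give no batch.

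The MPP3 and MPP4 libraries of 1 mouse share its number, age and sex. Their deviations from the group means correlated at 0.274 to 0.528 in 8 of 8 mice, so they were taken as pairs. WT and KO mice of 1 number correlated at −0.440 to 0.0606 and were not. The genes, pathway and marker lists, motifs and tests were chosen with earlier results of these data known. The rule for names was all 9 genes, the 2 genes with the highest r to each, up to 2 called genes a direction and list with the largest change and no overlap between WT populations, and the gene of smallest p for KO against WT. A gene that this rule names is not reported here. The list entry Cd99 was unmatched (308 of 309 matched).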

Additional observations from a re-analysis of the deposited data

Results flagged for a closer look

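Cd44 in MPP4 KO replicate 2 was at 254.8 CPM, while the other 3 libraries of its group lay between 272.7 and 272.8 CPM. The gap was 0.994 of the range of the group, above Dixon's critical value for 4 libraries. It was the 1 such case in 36 groups of values, the 9 genes in 4 groups each, and chance gives about 1 in 20.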

How the results depend on the processing

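Over the 13 alternatives that did not leave out 1 library in turn, the calls of Ccr7, S1pr1, Selplg, Itgb7, Itgal and Cd44 between the populations held in WT and in KO wherever these contrasts were fitted, and they held in the 16 fits that left out 1 library. Ccr7 is among them, though it had to differ to pass the filter of the main fit. The block by mouse raised the genes called in WT from 1790 to 2930 and in KO from 2116 to 3346, and for the interaction from 0 to 2. A block by the number that WT and KO mice share gave 29 genes in MPP3 and 23 in MPP4 for the genotype comparison, where 8 and 2 were called without it, and changed no call of the 9 genes. limma-voom with mouse as a random replicate block (correlation 0.372) gave 3054 genes in WT, 3352 in KO, 34 for KO against WT in MPP4, and 0 of the 9 for KO against WT in MPP3.

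For KO against WT in MPP3, the count of the 9 genes called went from 1 to 0 under voom, with age as a term, without mouse WT1, in a fit of 8 libraries, and without the pair of MPP3 WT libraries rich in plasma cell markers (an alternative chosen after seeing the data). It ranged from 0 to 1 with 1 library left out. Over all genes that count was 215 with DESeq2, 58 with sex, and 1 with age, in the fit of 8 libraries or without that pair, and ranged from 1 to 137 with 1 library left out. In MPP4 the count of the 9 genes was 3 with DESeq2 and 1 with sex or without that pair. Over all genes it was 305, 183 and 103 there, 1 with age, 4 without mouse WT1, 21 in the fit of 8 libraries, and 1 to 41 with 1 library left out. For the interaction it was 8 with DESeq2, 1 without that pair, and 0 to 1 with 1 library left out. The cause of these shifts was not tested.

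Changes of sign were seen only in effects that were not called. Without that pair, KO against WT in MPP3 was 0.168 for Cxcr4 and 0.0214 for Itga4, and the interaction 0.0691 for Cxcr4 and −0.0237 for Cd44. Without mouse WT1 the interaction was 0.00663 for Selplg and −0.0386 for Cd44. With 1 library left out, KO against WT ran from −0.132 to 0.783 for Ccr7 in MPP3, and in MPP4 from −0.0816 to 0.426 for Cxcr4 and from −0.0163 to 0.191 for Itga4. The interaction ran from −0.101 to 0.0155 for Selplg, −0.0323 to 0.0475 for Cd44, −0.315 to 0.600 for Ccr7 and −0.0631 to 0.101 for Itgal.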
